A study of Mus musculus with 23 samples.

Results

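Podxl and 9 other genes of epithelial adhesion and cell shape (Ezr, Cdh1, Cdh2, Epcam, Cldn6, Tjp1, Itgb1, Itga6 and Vim) were examined for the nucleotides at which their RNA was crosslinked to CTCF. The 10 genes were chosen by name, with earlier results of these data known, from 55413 genes annotated on chromosomes 1 to 19, X and Y, and for each one every crosslink site on its own strand inside its annotated body was taken. Podxl was followed in the study partly because its RNA gave more CTCF reads in neural progenitors than in stem cells in these same libraries, so its ratio between the cell types is a description and not independent evidence.

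CTCF is a zinc finger protein that anchors chromatin loops, and it also binds RNA, in part through zinc finger 1. Podocalyxin, the product of Podxl, is a heavily sialylated membrane protein of the apical cell surface that is tied to the actin cortex by ezrin, the product of Ezr. In epithelia, E-cadherin and Epcam join neighbouring cells, claudins and ZO-1 seal the space between them, and integrins hold cells to the matrix, whereas N-cadherin and vimentin are known from neural and mesenchymal cells.

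CTCF-bound RNA was profiled by iCLIP2, which joins RNA to bound protein with UV and maps the nucleotide before which the reverse transcriptase ends. The material was mouse E14 cells, either embryonic stem cells (ESCs) or their progeny after 2 days of differentiation toward neural progenitors (NPCs). Every line carried endogenous CTCF tagged with mAID-eGFP on both alleles, OsTIR1(F74G) on 1 allele of Rosa26, an mCherry reporter at Hb9, and a doxycycline-inducible Flag-Halo CTCF at the Tigre locus. In all groups 5-Ph-IAA (1 µM) removed the endogenous protein while doxycycline (1 µg/mL, 24 hours) induced the rescue protein. Rescue with wild-type CTCF (WT) or with CTCF deleted for part of zinc finger 1 (ΔZF1) was made in 1 clone each. The UV dose was 400 mJ/cm2 (254 nm), and unexposed cells of the WT rescue line served as controls (noXL). The ΔZF1 line had no control of its own. NPC WT had 3 libraries, and each of the other groups had 4.

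The authors merged the libraries of each group before they called sites, so each group is 1 list. There is no replicate error for any value below, and no test between groups could be made. The lists held between 102002 (NPC noXL) and 429119 (ESC WT) sites inside genes on the genes' strand, and their read depth is unknown. Ranges in brackets are 95% Wilson intervals, or intervals of ratios derived from them, and cover counting error only. A longer list can come from more reads as well as from more crosslinking. The lists hold no RNA abundance and the study's RNA-seq was not used here, so from these lists alone the amount of an RNA and the contact per RNA molecule cannot be told apart.

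The labelled cell types were set against marker genes in the same lists. Among stem cell genes the WT lists gave Esrrb 460 sites in ESCs against 0 in NPCs, Klf4 66 against 0 and Nanog 85 against 14. Nes, which encodes the progenitor filament protein nestin, had 2 against 28. Sox1, Pax6, Hes5, Zic1, Fabp7, Pax3 and Otx2, the other progenitor genes listed, had 0 sites in both NPC lists made with UV, and Sox1 had 2 and Pax6 had 1 in NPC noXL. Of 7 stem cell genes with enough sites to compare, 6 had a scaled log2 ratio of NPC WT to ESC WT of -1 or less, and the other, Pou5f1, had -0.44. The transcription factors that define neural progenitors had no sites in the NPC lists made with UV.

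The 21 nt around the highest sites show where and on which base these sites were called, which for some was also without UV. They are read 5′ to 3′ from the RNA's strand of GRCm38 (mm10), with T for uridine and the crosslinked base in capitals. The score is the strength that the PureCLIP caller gave to a site, and it is not scaled to depth. The first 6 are the sites of Podxl with the highest scores in NPC WT, the list with most of its sites. They lie in its 3′ UTR or coding exons on the minus strand of chromosome 6, at chr6:31520523-31520543, chr6:31522797-31522817, chr6:31523015-31523035, chr6:31528615-31528635, chr6:31520771-31520791 and chr6:31520524-31520544, in this order.
Podxl 3′ UTR, score 20.1: gcctatttttTggacaataca
Podxl 3′ UTR, score 15.8: cctcatgtaaAataacctact
Podxl coding exon, score 14.1: acacacacctCtgatctgtct
Podxl coding exon, score 14.0: aagcttctttCtacccccaca
Podxl 3′ UTR, score 11.9: agagctcttcAtttcagtggc
Podxl 3′ UTR, score 11.3: tgcctattttTtggacaatac
The first and the last of these are neighbouring uridines of 1 uridine tract. The other 4 lie on adenine or cytosine. All 6 were called in NPC WT and in no other list.

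Of the 5 Podxl sites called in more than 1 list, 3 were added after their values were seen, because they could be compared between lists. The first of the lines that follow, at chr6:31524997-31525017 in a coding exon, scored 5.50 in NPC WT and 28.2 in NPC ΔZF1, where it was the highest site of the gene. The other two, at chr6:31563894-31563914 and chr6:31563923-31563943 in the 5′ UTR, were called in ESC WT and NPC WT.
Podxl coding exon, both NPC lists with UV: gctgaggattTgtgcactcta
Podxl 5′ UTR, both WT lists: ggacggggcgGgagtcttcgc
Podxl 5′ UTR, both WT lists: gggggaggggGcggaggccag
The shared coding site is a uridine beside other uridines. The shared 5′ UTR sites are guanines in guanine-rich sequence 77 and 48 nt after the annotated start.

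For 8 of the other 9 genes the site with the highest score in a WT list is shown, to be set against Podxl. These sites lie on the strand of their gene at chr17:6782747-6782767 (Ezr, minus), chr8:106603357-106603377 (Cdh1, plus), chr17:87636719-87636739 (Epcam, plus), chr17:23681924-23681944 (Cldn6, plus), chr7:65297034-65297054 (Tjp1, minus), chr8:128685764-128685784 (Itgb1, plus), chr2:71786925-71786945 (Itga6, plus) and chr2:13574299-13574319 (Vim, plus).
Ezr 5′ UTR: cggagcgcgcGcagggcttcc
Cdh1 5′ UTR: ctgcgctgctCactggtgtgg
Epcam 5′ UTR: cgcacagcgcTcagtccgtcc
Cldn6 3′ UTR: cacctgttttTgagacaagct
Tjp1 3′ UTR: gggagggaggGtcaaatgaag
Itgb1 5′ UTR: tgaagagccgCcagacccgcg
Itga6 exon of a non-coding transcript: ctccagagaaCaacgggctca
Vim 5′ UTR: cgttgtccagTcctctgccac
Only the Cldn6 site lies at the end of a uridine tract. The Ezr, Epcam and Tjp1 sites were also called at the same base in both noXL lists, the Itgb1 and Vim sites in ESC noXL, and the Cdh1 site lies next to a base called in all 6 lists. Of the 8 sites, 4 (Ezr, Epcam, Itgb1 and Vim) were thus both in a 5′ UTR and called at the same base without UV.

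As examples of coding positions that recurred, 3 uridines are shown that were chosen, after their values were seen, for being called in all 4 UV lists, and they stand for no other positions. They lie at chr8:106666187-106666207 (Cdh1, plus), chr17:87649636-87649656 (Epcam, plus) and chr8:128732028-128732048 (Itgb1, plus).
Cdh1 coding exon: gactttgattTgagccagctg
Epcam coding exon: cagcaaaataTgagaaggctg
Itgb1 coding exon: aaatcctattTacaagagtgc
The Cdh1 and Itgb1 bases were in neither noXL list, and the Epcam base was also called in NPC noXL.

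Podxl (chromosome 6, minus strand, from 31519488 to 31563981) has 8 exons in its principal transcript. Its sites in ESCs numbered 8 with WT, 1 with ΔZF1 and 9 without UV, and in NPCs 46, 32 and 12. In ESCs Podxl was thus no richer in sites with UV than without it. Of its sites summed over the 6 lists, after scaling each list to its genic sites, 3.06% fell in ESC WT and 32.8% in NPC WT. Ezr, whose protein binds podocalyxin (chromosome 17, minus strand, from 6738041 to 6782784), had 58, 41 and 29 sites in the same order in ESCs and 37, 27 and 15 in NPCs, and its scaled share stayed between 13.5% and 19.2% in every list.

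Among the cadherins, Cdh1 (E-cadherin, chromosome 8, from 106603351 to 106670246, plus strand) was the richest of the 10 genes in NPCs. Its ESC lists (WT, ΔZF1, noXL) had 119, 67 and 33 sites and its NPC lists 238, 148 and 82. Cdh2, which encodes N-cadherin, held 0 in every ESC list and 9, 11 and 2 in the NPC lists. With a floor of 3 sites for a list, its 9 sites in NPC WT are at least 3-fold more than in ESC WT before any scaling. Cdh2 was the only member with an empty UV list.

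The remaining junction genes differed in how much they held. Epcam, a homophilic adhesion protein of epithelial and stem cells (chromosome 17, from 87635979 to 87651129, plus strand), held 52, 13 and 12 sites in the ESC lists and 34, 12 and 6 in the NPC lists. Cldn6, a tight junction claudin of embryonic epithelia (chromosome 17, from 23679249 to 23682446, plus strand), held 8, 6 and 0 sites in the ESC lists and 20, 4 and 6 in the NPC lists. Tjp1, which encodes the tight junction scaffold ZO-1 (chromosome 7, from 65296165 to 65527781, minus strand), held 87, 58 and 45 and then 91, 75 and 41. Cldn6, the shortest of the 10 genes, had the fewest sites of these 3 in both WT lists, but in NPC WT the most per length, with 6.25 sites per kb of gene body in NPC WT against 2.24 for Epcam and 0.39 for Tjp1.

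The integrin genes were among the richest of the 10 genes in ESC WT. Itgb1, the beta subunit shared by many integrins (chromosome 8, from 128685654 to 128733200, plus strand), held 95, 30 and 22 sites in the ESC lists and 129, 78 and 51 in the NPC lists. Itga6, an alpha subunit for laminin receptors (chromosome 2, from 71745616 to 71858416, plus strand), held 120, 45 and 39 and then 62, 44 and 21. Vim, which encodes the intermediate filament vimentin (chromosome 2, from 13573927 to 13582826, plus strand), held 48, 28 and 13 and then 20, 23 and 2. No site of the 10 genes overlapped another gene on its strand, and the opposite strand of the 10 bodies held 0 sites in every list.

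**Figure D1:**
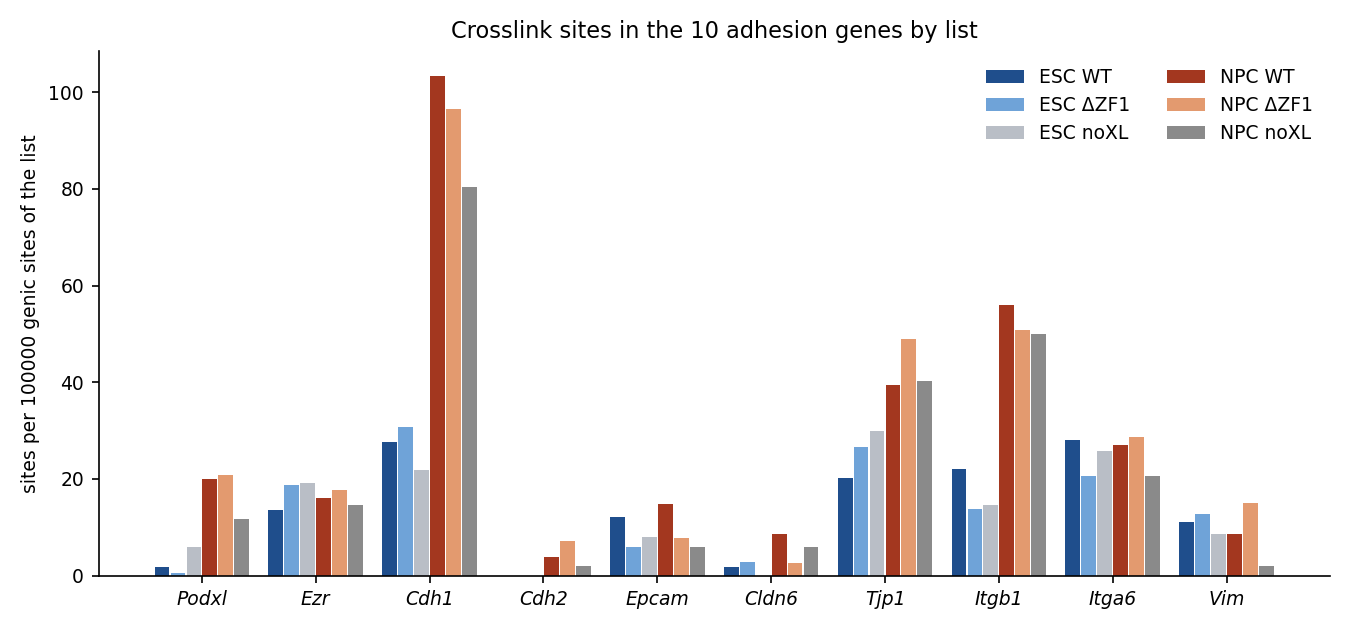
Crosslink sites of each of the 10 genes, as sites per 100000 genic sites of the list, with 1 bar for each of the 6 pooled lists and therefore no error bar. Podxl and Cdh1 are higher in all 3 NPC lists, the noXL list included, while Ezr stays level and Cdh2 has no bar in ESCs.

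The first comparison asked which of these RNAs carried more sites in NPCs than in ESCs. Ratios are log2 of the sites plus 1 in both lists, divided by the total of genic sites in the list, and a gene was compared with at least 20 sites in the pair of lists. Of 9 genes compared, 4 had a scaled log2 ratio of NPC WT to ESC WT of at least 1, where 11.5% of 6730 genes did. They were Podxl at 3.28 (2.36 to 4.48), Cldn6 at 2.12 (1.07 to 3.37), Cdh1 at 1.89 (1.58 to 2.22) and Itgb1 at 1.34 (0.96 to 1.72). None was at -1 or less, where 10.4% of genes were. Tjp1 was just under the limit at 0.96 (0.54 to 1.39). Epcam at 0.30, Ezr at 0.26, Itga6 at -0.04 and Vim at -0.32 had intervals that include 0. The median of the 9 genes was 0.96, against 0.04 over all genes compared. Without scaling, Podxl at 2.38 and Cldn6 at 1.22 were still at least 1, and Cdh1 at 0.99 and Itgb1 at 0.44 were not.

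The ΔZF1 lists gave the same comparison with libraries that share none of the WT ones. Podxl was again the highest, with 32 sites in NPC ΔZF1 and 1 in ESC ΔZF1, a scaled log2 ratio of 4.55 (2.97 to 8.04) that is wide because 1 list holds a single site. Itgb1 at 1.86 and Cdh1 at 1.64 were also at least 1, where 10.9% of 5113 genes were. Cldn6 could not be compared, with 4 sites and 6. In the noXL lists, Cdh1 with 82 sites to 33 had a scaled log2 ratio of 1.85 (1.30 to 2.46) and Itgb1 with 51 to 22 had 1.74 (1.06 to 2.49), where 11.1% of 3726 genes reached 1 and 12.3% were at -1 or less. Their ratio between the cell types was therefore about as large without UV as with it. Podxl in noXL, with 12 sites to 9, had 0.94 (-0.23 to 2.19), an interval that includes 0 and lies below the 3.28 of the WT lists.

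Exons and introns gave different answers for different genes. In exons, scaled to the exonic sites of each list, 2 of 9 genes had a ratio of NPC WT to ESC WT of at least 1, where 8.31% of 6459 genes did, and none had -1 or less, where 9.04% did. Those at least 1 were Podxl, with 43 sites to 8 and 3.05 (2.13 to 4.26), and Cldn6, with 19 to 8 and 1.92 (0.85 to 3.17). Cdh1 had 70 exonic sites to 92 and a ratio of 0.38 (-0.08 to 0.82), and Itgb1 had 63 to 90 and 0.26 (-0.21 to 0.71). The exons of both thus stayed within counting error of the list as a whole, and the higher count of Cdh1 and Itgb1 in NPCs lay in introns.

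Of the 3 genes with enough intronic sites to compare, all 3 were at least 1 in NPC WT over ESC WT, where 16.8% of 1949 genes were. Itgb1 had 66 intronic sites to 5, a ratio of 4.69 (3.66 to 6.20). Cdh1 had 168 to 27, at 3.80 (3.26 to 4.43), and Tjp1 had 32 to 8, at 3.08 (2.12 to 4.30). The noXL lists moved with them: intronic sites were 50 to 7 in Itgb1 (3.15, 2.20 to 4.43), 80 to 25 in Cdh1 (2.12, 1.51 to 2.80) and 15 to 8 in Tjp1 (1.31, 0.18 to 2.59), where 17.7% of 1369 genes were at least 1. Podxl, with 3 intronic sites in NPCs and 0 in ESCs under WT, was too sparse to compare.

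**Figure D2:**
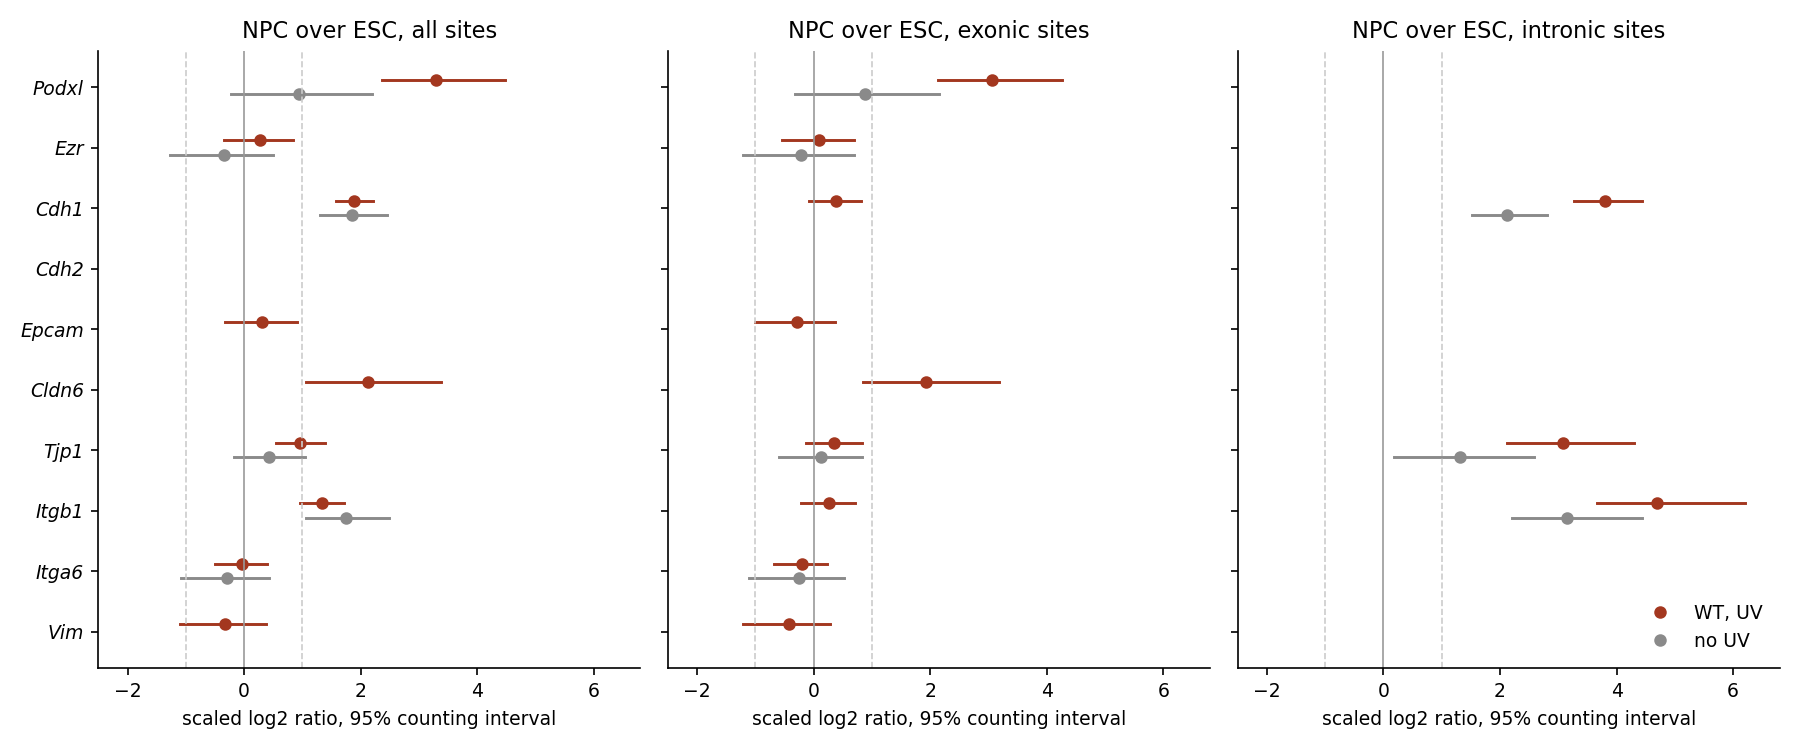
Scaled log2 ratio of NPC to ESC for all, exonic and intronic sites, with points for the WT lists with UV (red) and the noXL lists (grey), horizontal bars for 95% counting intervals and dashed lines at -1 and 1. With WT, Podxl and Cldn6 lie beyond 1 in exons and Cdh1 and Itgb1 lie at 0.38 and 0.26 there, while Podxl in noXL lies at 0.89, and the intronic ratios of Cdh1, Itgb1 and Tjp1 are high with and without UV; genes with fewer than 20 sites in the pair are not drawn.

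Most intronic sites of Cdh1 lay in intron 2, which runs over 44593 nt from 106604408 to 106649000. This intron makes up 71.4% of the intron length of the gene and held between 77.8% and 95.7% of the sites in the introns of the principal transcript in each list. Counts for a numbered intron follow that transcript, and the other intronic counts leave out sites in an exon of any transcript. The sites of intron 2 numbered 23, 45 and 21 in the ESC lists (WT, ΔZF1, noXL) and 144, 113 and 72 in the NPC lists. The WT densities were 0.516 sites per kb in ESCs and 3.23 in NPCs. With the intron cut into 4 equal stretches, NPC WT had 52, 51, 26 and 15 sites from 5′ to 3′, so they spread through it with more at the 5′ end. In ESC WT, 19 of 23 lay in the stretch nearest exon 2. Intron 1 of Itgb1, of 19453 nt, held 5, 5 and 4 sites in the ESC lists and 38, 43 and 29 in the NPC lists.

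**Figure D3:**
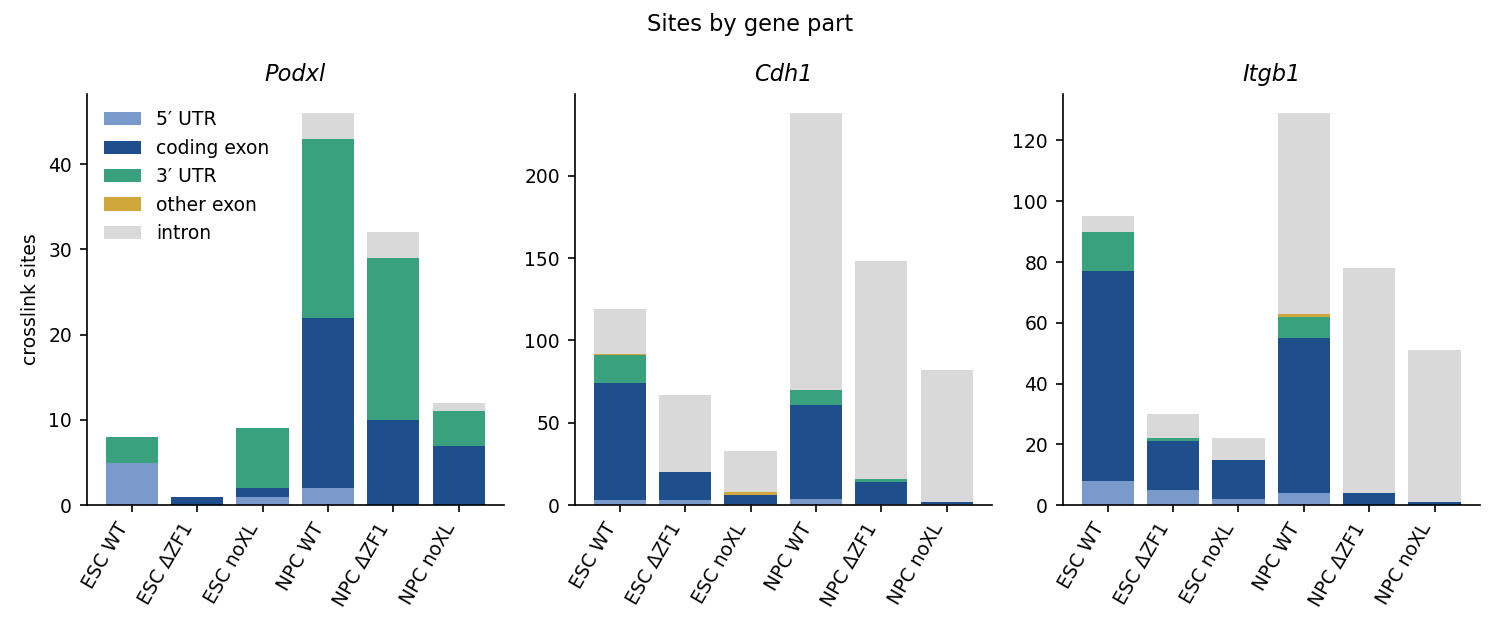
Number of crosslink sites of Podxl, Cdh1 and Itgb1 in each pooled list, stacked by gene part, with a separate y axis for each gene. Podxl stays mainly exonic in NPCs with 3 of 46 sites intronic in NPC WT, while grey intronic sites make up 168 of 238 in Cdh1 and 66 of 129 in Itgb1.

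The second comparison asked which of these RNAs lost sites when zinc finger 1 was disrupted. It uses the same WT lists as the comparison of cell types, so the ratios of both are not independent of each other. Over whole genes, 0 of 7 compared in ESCs had a scaled log2 ratio of ΔZF1 to WT of -1 or less, where 5.45% of 6518 genes did. In NPCs 1 of 10 did, where 7.36% of 5274 genes did. No member reached 1, where 6.84% of genes did in ESCs and 5.76% in NPCs. That gene was Cldn6, with 4 sites to 20 and a ratio of -1.48 (-3.22 to -0.25). Podxl, with 32 to 46, had a ratio of 0.08 (-0.58 to 0.71). Relative to the NPC ΔZF1 list as a whole Podxl was therefore within counting error, but this rests on the scaling: the ratio was -0.51 unscaled and -0.93 when scaled by the number of libraries. Members at -1 or less were then 3 of 7 in ESCs under either, where 47.1% of all genes were. In NPCs they were 2 of 10 unscaled, where 28.4% were, and 4 of 10 scaled by libraries, where 54.5% were, so neither count stood above that of all genes. Podxl could not be compared in ESCs, where there were 1 and 8 sites. From tracks of reads, the study reported less CTCF crosslinking to Podxl in NPC ΔZF1 while its transcript level was unchanged. Read tracks and called sites scaled to the list are different measures.

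In exons alone the picture changed for Cdh1 and Itgb1. In ESCs Cdh1 held 92 exonic sites with WT and 20 with ΔZF1, a ratio of -1.20 (-1.95 to -0.56), and 70 and 16 in NPCs, also -1.20 (-2.04 to -0.49). Itgb1 held 90 and 22 in ESCs, at -1.04 (-1.75 to -0.42), and 63 and 4 in NPCs, at -2.82 (-4.52 to -1.71). Only 0.273% of 4770 genes were below Itgb1 in NPCs. Epcam held 51 and 12 in ESCs, at -1.05 (-2.03 to -0.25), and 24 and 8 in NPCs, at -0.61 (-1.85 to 0.40). These 3 genes were the ones at -1 or less in ESCs, of 7 compared and against 6.05% of 6253 genes. In NPCs 3 of 9 were, Cdh1, Itgb1 and Cldn6, against 6.62% of genes, and the Cldn6 ratio of -1.14 from 4 sites to 19 has an interval (-2.88 to 0.10) that includes 0. Counted on exonic uridine sites alone, an alternative chosen after seeing the data, Itgb1 stayed past the limit, at -1.13 in ESCs and -2.49 in NPCs. Cdh1 then had -0.87 and -0.80 and Epcam -0.18 in ESCs, within the limit. On that count 5.32% of 4344 genes in ESCs and 5.71% of 2960 in NPCs were at -1 or less.

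The other genes compared were not past the limit in exons. Podxl had 29 exonic sites with ΔZF1 to 43 with WT in NPCs, at 0.31 (-0.38 to 0.97). Ezr was at 0.39 in ESCs and 0.54 in NPCs, and Tjp1 at 0.38 and 0.08. Vim, with 22 exonic sites to 20 in NPCs, was at 0.99 (0.14 to 1.86), just under the upper limit of 1, which no member reached and 5.87% of genes in ESCs and 4.40% in NPCs did. Itga6 was at -0.52 in ESCs and 0.23 in NPCs. Within this set, Podxl thus stood with Ezr and Tjp1 rather than with Cdh1 and Itgb1, although no test of the difference between genes could be made from pooled lists.

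Introns of Cdh1 and Itgb1 had no ratio of -1 or less. Cdh1 had 47 intronic sites in ESC ΔZF1 to 27 in ESC WT, beside 25 in ESC noXL, a scaled ratio of ΔZF1 to WT of 1.82 (1.17 to 2.52), and 10.2% of 1941 genes reached 1. In NPCs it had 132 to 168, at -0.31 (-0.64 to 0.01). Itgb1 in NPCs had 74 intronic sites to 66, at 0.19 (-0.28 to 0.67), beside the 4 to 63 in its exons.

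The number of exons with a site is limited by the number of exonic sites and is given as a description. Itgb1 had a site in 16 of 16 exons in ESC WT and in 16 in NPC WT, in 13 in ESC ΔZF1, in 4 in NPC ΔZF1 and in 1 in NPC noXL. Cdh1 had a site in 16 of 16 exons in ESC WT and 15 in NPC WT, in 13 and 12 with ΔZF1 and in 6 and 2 without UV. Exonic sites in NPC ΔZF1 and NPC noXL numbered 4 and 1 for Itgb1 and 16 and 2 for Cdh1, too few for either gene to be compared between these lists. Podxl had sites in 8 of 8 exons in NPC WT and in 6 in both NPC ΔZF1 and NPC noXL.

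**Figure D4:**
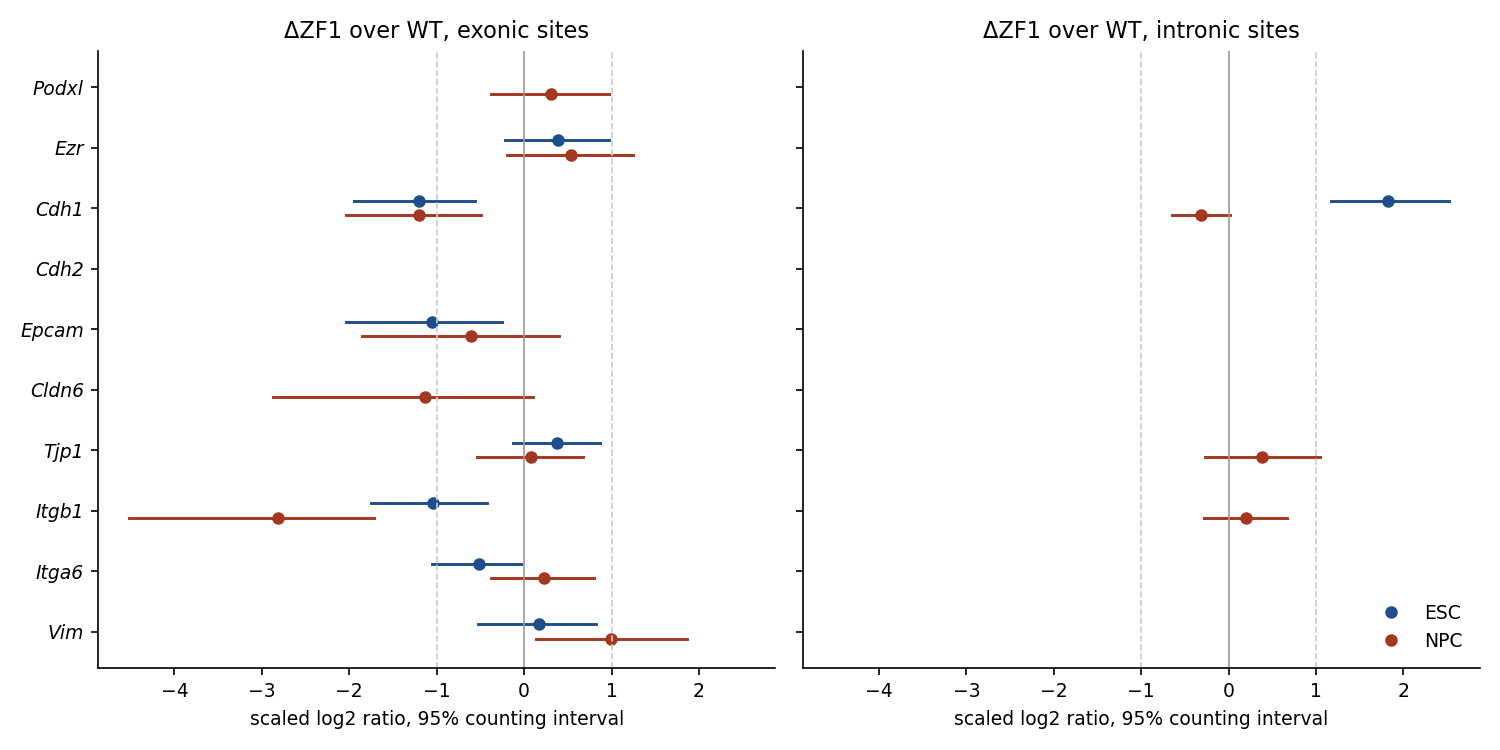
Scaled log2 ratio of ΔZF1 to WT in ESCs (blue) and NPCs (red) for exonic and intronic sites, with 95% counting intervals and dashed lines at -1 and 1; genes with fewer than 20 sites in the pair are not drawn. Cdh1 and Itgb1 lie at or beyond -1 in exons in both cell types, Podxl lies at 0.31 in NPCs, and no intronic ratio is below -0.31.

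Sites of the noXL lists do not come from UV, so each gene was also set against them. In exons of NPC WT over NPC noXL, Itgb1 with 63 sites to 1 had a scaled log2 ratio of 3.48 (1.94 to 6.97) and Cdh1 with 70 to 2 had 3.04 (1.72 to 5.50), where 9.12% of 4220 genes were at least 1. These stood above 99.9% and 99.8% of genes. Of 9 genes compared, 4 were at least 1, the other two being Vim with 20 to 2 at 1.28 (-0.15 to 3.75) and Epcam with 24 to 3 at 1.12 (-0.16 to 3.12), whose intervals include 0. Podxl, with 43 to 11, had 0.35 (-0.49 to 1.38) and stood above 72.8% of genes. Its number of sites with UV over that without was thus close to the ratio of the lists themselves. In introns, NPC WT over NPC noXL was 0.55 (0.18 to 0.94) for Cdh1 and -0.12 (-0.64 to 0.42) for Itgb1. In ESC exons, Cdh1 with 92 to 8 had 1.71 (0.84 to 2.88), where 9.15% of 5828 genes were at least 1, and it was the only one of 7 members compared to reach 1. Itgb1 with 90 to 15 had 0.84 (0.14 to 1.70).

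UV at 254 nm is known to crosslink uridine preferentially, so the base at each site was also read. In the NPC lists of the 10 genes, uridine lay under 69.7% of WT sites (66.1 to 73.0), 63.9% of ΔZF1 sites (59.4 to 68.2) and 28.2% of noXL sites (22.8 to 34.2). Over all genic sites of these lists the shares were 64.6%, 59.0% and 27.9%, so the gap to noXL belongs to the whole lists and not to these genes alone. In the ESC lists of the 10 genes the shares were 62.9%, 51.2% and 23.3%, beside 60.6%, 49.2% and 28.3% over all genic sites. Podxl had 56.5% in NPC WT (42.2 to 69.8), an interval that includes the share of its list. In Podxl the share in NPC WT exceeded that in noXL by 39.9 percentage points (8.30 to 57.7), and in NPC ΔZF1 by 49.0 points (15.9 to 67.4). Although its number of sites over noXL was near that of the whole list, the bases at its sites differed from the noXL bases by more than counting error. In ESC WT, 1 of its 8 sites and in ESC noXL 1 of its 9 lay on uridine.

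Uridine sites of these genes also tended to lie in uridine tracts. Of the exonic uridine sites of the 10 genes, 83.1% in NPC WT (78.4 to 87.0) and 77.0% in ESC WT (72.3 to 81.1) had another uridine beside them, against 6 of 21 in NPC noXL and 10 of 34 in ESC noXL, or 28.6% and 29.4%. Of all uridines in their exons, 49.7% do. The ΔZF1 lists gave 66.9% in NPCs (58.3 to 74.6) and 67.2% in ESCs (58.3 to 75.1), between the WT and noXL values. In Podxl 20 of 24 exonic uridine sites in NPC WT and 17 of 19 in NPC ΔZF1 lay beside a uridine, with 42.1% of its exonic uridines doing so, and the tract at the first sequence above is 1 example. The shares are 83.3% (64.1 to 93.3) and 89.5% (68.6 to 97.1).

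Along the Podxl transcript, NPC WT sites lay in the 5′ UTR (2 sites), coding exons (20), the 3′ UTR (21) and introns (3). NPC ΔZF1 had 10 in coding exons, 19 in the 3′ UTR and 3 in introns. Exon 8, of 3732 nt, which holds the stop codon and the 3′ UTR, took 24 sites of NPC WT, 19 of NPC ΔZF1 and 4 of NPC noXL, and exon 2, of 579 nt, took 7, 1 and 0. No NPC WT site lay in intron 1, which at 34542 nt is most of the gene, and all 3 intronic sites of NPC ΔZF1 lay there.

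**Figure D5:**
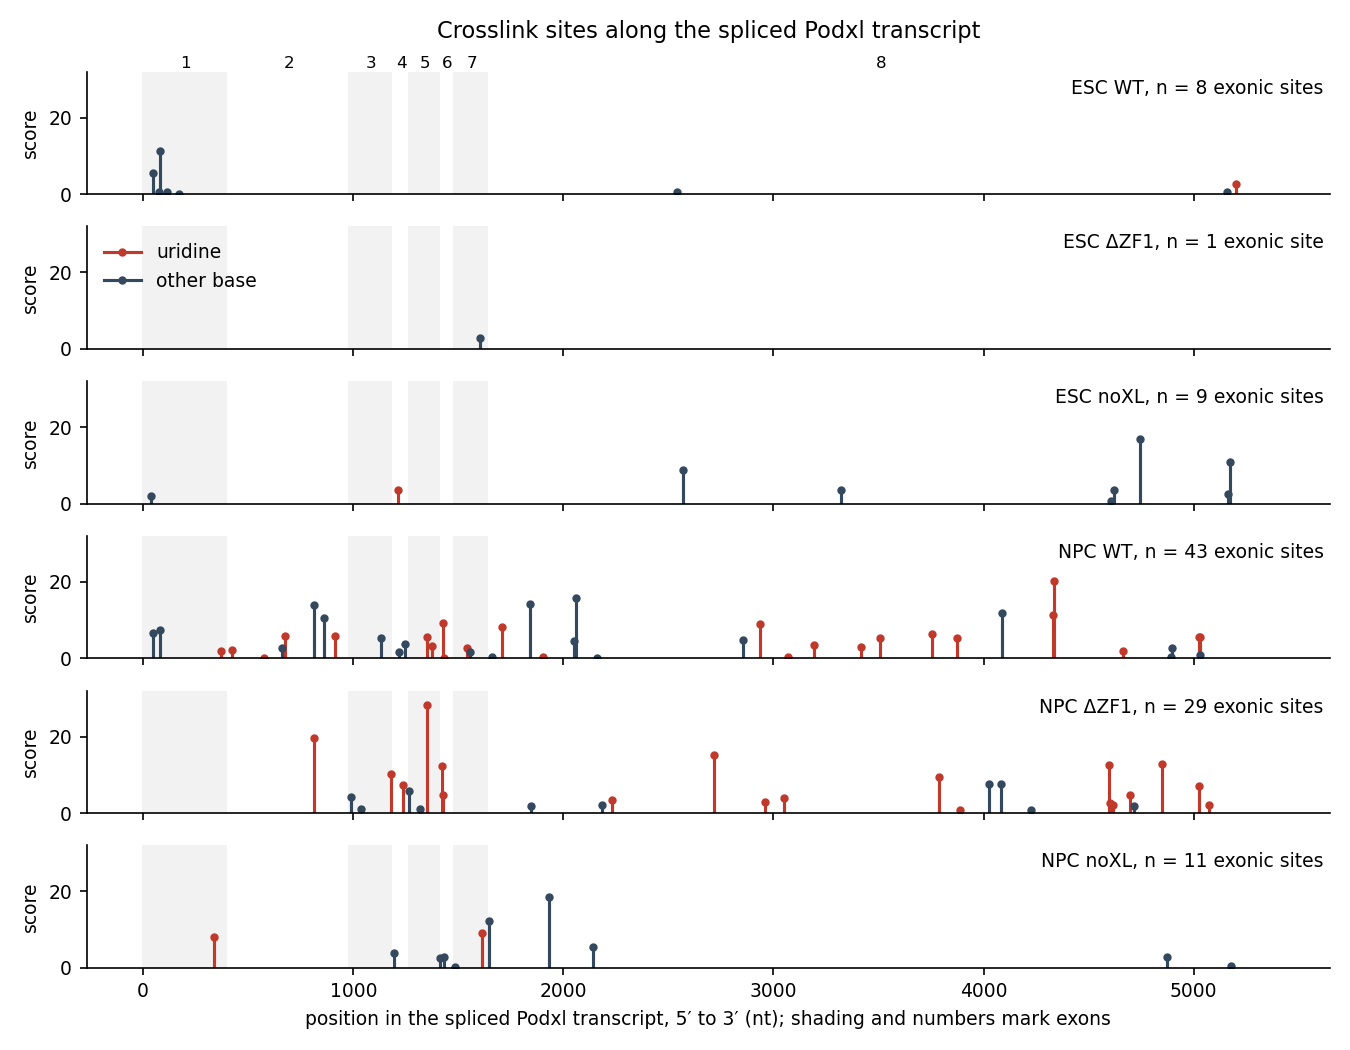
Crosslink sites along the spliced Podxl transcript in the 6 pooled lists, with position in nt from the 5′ end on the x axis, the score of each site on the y axis, alternate exons shaded and numbered, and uridine sites in red. Sites of NPC WT lie in every exon, with 3 of 46 in exon 1, those of NPC ΔZF1 start in exon 2, and 5 of the 8 ESC WT sites lie in exon 1.

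The study truncated Podxl RNA by inserting a transcription stop after exon 1, and the position of the sites relative to that exon can be read from the lists. The guide RNA it used matches once in the gene, at chr6:31563564-31563583 on the minus strand, and is shown with its PAM in capitals because it spans the boundary of exon 1 and intron 1.
Podxl guide: taatggtgagtggacagccgCGG
Of its 20 bases, 5 lie in exon 1 (chr6:31563579-31563981) and 15 in intron 1. Exon 1 is 403 of the 5379 nt of the principal transcript, so sites spread evenly along the exons would mostly lie downstream of it. In NPC WT, 43 of 46 sites (93.5%, 82.5 to 97.8) lay downstream of exon 1. In NPC ΔZF1 all 32 did (89.3 to 100%), and in NPC noXL 11 of 12 did (64.6 to 98.5%). In ESC WT only 3 of 8 did (13.7 to 69.4%), the other 5 being in the 5′ UTR, whereas in ESC noXL 8 of 9 did (56.5 to 98.0%) and the 1 site of ESC ΔZF1 did. The truncated allele itself was not profiled in these libraries.

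Few single positions of Podxl recurred. Its sites in the 6 lists fell on 103 positions, of which 98 were called in 1 list and 5 in 2 lists. Such counts were not made over all genes, so they are a description and not a trait particular to Podxl. The 5 were uridines at 31519840 in the 3′ UTR and at 31524724 and 31525007 in coding exons, shared by NPC WT and NPC ΔZF1, and the guanines at 31563904 and 31563933 shared by the WT lists. Within 5 nt of an NPC WT site lay 7 of 32 NPC ΔZF1 sites, or 21.9%, against 3.13% after shifting positions by 500 and 1000 nt. Of the 46 NPC WT sites, 1 lay within 5 nt of an NPC noXL site.

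The 10 genes together had 2172 positions, of which 1963 were called in 1 list and 11 in all 4 UV lists. These counts too have no share over all genes to be set beside them. Of those 11, 5 were in Cdh1, all on uridine, and 3 in Itgb1. Only 3 positions were in all 6 lists, at 106603366 in Cdh1, 6782757 in Ezr and 65297044 in Tjp1. Within 5 nt of a WT site lay 33.9% of ESC ΔZF1 sites (28.7 to 39.5) and 15.9% of NPC ΔZF1 sites (12.8 to 19.5), against 2.68% and 3.19% after shifts. In Itgb1 it was 15 of 30 in ESCs (33.2 to 66.8%) and 7 of 78 in NPCs (4.42 to 17.4%).

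The highest site of each gene was set against the 5′ UTR and the noXL sites. The same counts were not made over all genes. Those below therefore describe these genes only, and whether they are a property of the whole lists was not tested. It lay in the 5′ UTR for 7 of 9 genes in ESC WT, 5 of 9 in ESC ΔZF1, 4 of 10 in NPC WT and 0 of 10 in NPC ΔZF1. It lay within 5 nt of a noXL site for 7, 7, 4 and 2 genes. The highest site was a uridine in 2 of 9 genes in ESC WT and 3 of 9 in ESC ΔZF1, and in 4 of 10 in NPC WT and 9 of 10 in NPC ΔZF1. In Podxl the highest site was a 5′ UTR guanine in ESC WT (score 11.3), a 3′ UTR uridine in NPC WT and a coding uridine in NPC ΔZF1, and none of them was near a noXL site.

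The genes with a pattern most like Podxl over the 6 scaled lists were App, Map4k5, Rnf128, Col18a1 and Aacs, of 6677 genes with at least 40 sites. Likeness was the sum of absolute differences between shares of sites over the lists, a description over 6 pooled lists. App had 2, 0 and 6 sites in the ESC lists and 41, 31 and 11 in the NPC lists. Of the other 9 genes examined, Cdh1 came nearest, with 1.02% of genes closer to Podxl, followed by Itgb1 (2.43%) and Cdh2 (3.91%). Vim was farthest (64.4%). Cdh2 itself falls below the minimum of 40 sites, with 0 in every ESC list and 9, 11 and 2 in the NPC lists, so its place rests on few sites. This likeness counts exons and introns together, in which Cdh1 and Itgb1 differ from Podxl as given above.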

How the data were processed

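Per the labels and the study's methods, the authors used Flexbar to split and trim the reads, STAR for alignment to mm10 and UMI-tools to collapse duplicates by their molecular identifiers. They then pooled the libraries of each condition and called crosslinked nucleotides on the pool with PureCLIP. Versions are not given in the sources used here. The deposited value of each site is the PureCLIP score assigned by the authors, which is not scaled to depth. It was used here to rank sites and, in 1 alternative, as a minimum at the median of all sites, 3.02. Peaks reproducible between libraries were not rebuilt, because the lists pool the libraries, and depth is unknown.

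Sites were assigned to GENCODE M21 genes of GRCm38 (mm10). Over all transcripts of a gene, a coding exon took priority over a 3′ UTR, that over a 5′ UTR, that over an exon of a non-coding transcript, and introns came last. Counts per gene were compared as log2 ratios with a pseudocount of 1, scaled to the genic, exonic or intronic sites of each list, with limits of 1 and -1, for genes with at least 20 sites in the pair of lists. A site was near another within 5 nt on the same strand. The principal transcript was the longest coding one. Sequences and bases were read from the reference. Groups came from the sample labels. The 23 libraries give 6 lists, so no test between groups was run.

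All 10 genes are named. From 72 further adhesion genes, up to 3 with the highest and up to 3 with the lowest ratio past a limit are named in each comparison, as well as the 5 genes most like Podxl. A gene that this rule would name is not reported here. The members, lists and rules were chosen with earlier results of these data known. Alternatives changed the score, base, gene part, scaling, pseudocount, gene minimum, annotation and sharing distance. The calculations were tested on simulated data. They ran in Python 3.11.15 with pysam 0.24.0, numpy 2.4.6, scipy 1.17.1, pandas 2.3.3, and, for the figures, matplotlib 3.10.9.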

Additional observations from a re-analysis of the deposited data

Results flagged for a closer look

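Ratios of ΔZF1 to WT that had opposite signs in the 2 cell types are given here, and the difference between the cell types was not tested, because each group is 1 pooled list. Cdh1 over its whole body had a scaled log2 ratio of 0.16 in ESCs and -0.095 in NPCs. Itga6 over its whole body had -0.42 in ESCs and 0.10 in NPCs, and in exons -0.52 in ESCs and 0.23 in NPCs. Cdh1 in introns had 1.82 in ESCs and -0.31 in NPCs. Of these, the ESC ratios of Cdh1 in introns (1.17 to 2.52) and of Itga6 in exons (-1.05 to -0.03) have intervals that leave out 0, and the others include it.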

How the results depend on the processing

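No value reversed its sign past a limit under any alternative run. No paired analysis was possible because every list pools 3 or 4 libraries, and leaving out a library was not possible either. Depth is unknown, and genes with few sites, such as Podxl in ESCs, have wide intervals. In NPC WT over ESC WT, the ratio of Podxl was 4.56 on uridine sites alone. The members at 1 or more, 4 as reported, were 2 in exons and 2 unscaled, and 1 was at -1 or less unscaled, where 5.16% and 41.9% of all genes were. In ESC ΔZF1 over WT, members at -1 or less, 0 as reported, were 1 with the score minimum, 1 without sites near noXL sites, and 3 in exons, unscaled or scaled by libraries (6.0%, 6.39%, 6.05%, 47.1% and 47.1% of all genes), and 1 was at 1 or more in introns. In NPC ΔZF1 over WT, members at -1 or less, 1 as reported, were 0 on uridine, without sites near noXL sites, with a minimum of 50 or in introns, 3 in exons, 2 unscaled and 4 scaled by libraries (7.55%, 7.89%, 3.04%, 12.9%, 6.62%, 28.4% and 54.5% of all genes), with Podxl at -0.93 in the last. In noXL, 0 members were at 1 or more in exons, against 2, and 1 was at -1 or less with a minimum of 10 (8.28% and 15.8%). Without scaling the median of all genes moved from 0.04 to -0.86, from 0.04 to -0.94, from -0.04 to -0.63 and from -0.05 to -0.61 in these 4 comparisons, and scaling by libraries moved the first and the third to -0.44 and -1.04. Exonic alternatives and those for introns were chosen after seeing the data. Exonic NPC WT over ESC WT gave Podxl 5.04 in coding exons, where ESC WT had 0 sites, and 4.29 on uridine, with 1 member at 1 or more in each (6.67% and 6.47%), against 2. Exonic ΔZF1 over WT on uridine left 1 member at -1 or less in ESCs and 1 in NPCs (5.32% and 5.71%), against 3 and 3. In NPCs 1 member was at 1 or more in coding exons and 1 without sites near noXL sites (4.83% and 4.97%), against 0. Sites of the 10 genes in ESC WT, ΔZF1 and noXL and NPC WT, ΔZF1 and noXL were 346, 136, 122, 371, 252 and 145 with the score minimum. On uridine they were 374, 148 and 47 in ESCs and 290 and 67 in NPC ΔZF1 and noXL. Podxl in NPC WT, ΔZF1 and noXL had 27, 18 and 7 sites with the score minimum and 26, 21 and 2 on uridine. With the score minimum the uridine share of the WT lists was 67.1% in ESCs and 74.9% in NPCs, and the exonic share was 95.7%, 71.2% and 47.6% in ESC WT, NPC WT and NPC ΔZF1 and 100% for Podxl in NPC ΔZF1. The exonic share of ESC WT was 94.1% on uridine and 87.9% by principal transcript, and that of Podxl in NPC noXL was 100% on uridine. ΔZF1 sites at a WT site were 18.3% in ESCs (0.346% after shifts) and 8.15% in NPCs (0.496%) at 0 nt, and 69.2% (13.5%) and 46.0% (20.2%) at 50 nt. The cause of these moves was not tested.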

Other observations

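A wider set of 72 genes of cell adhesion was described with the same ratios, grouped as partners of podocalyxin and ERM proteins, cadherins and catenins, tight junction, integrins and focal adhesion, intermediate filaments and desmosome, apical polarity, and epithelial and mesenchymal regulators. In NPC WT over ESC WT, 18 of 44 genes compared had a scaled log2 ratio of at least 1, where 11.5% of all genes did, and 0 had -1 or less, where 10.4% did. The highest were Esrp1, an epithelial splicing regulator, with 77 sites to 0, and the keratin genes Krt8 with 42 to 0 and Krt18 with 25 to 0. The counts with a ratio of at least 1 were 5 of 7 for intermediate filaments and desmosome, 5 of 9 for integrins and focal adhesion, 3 of 7 for cadherins and catenins, 3 of 9 for apical polarity, 1 of 7 for the tight junction and 0 of 4 for the partners of podocalyxin. Esrp1 was the only regulator compared. Without UV, 6 of 30 genes were at least 1, where 11.1% of all genes were, and 2 were at -1 or less, where 12.3% were. Esrp1 had 43 sites to 0 in noXL, Patj, a polarity scaffold, 44 to 1 (5.06, 3.50 to 8.55), and Dsp, which encodes the desmosomal protein desmoplakin, 35 to 9 (2.41, 1.49 to 3.56). The lower ones were Pkp2, which encodes plakophilin 2, with 4 to 28 (-1.97) and Prkci, which encodes an atypical protein kinase C, with 9 to 49 (-1.76).

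With ΔZF1 over WT in NPCs, 4 of 45 genes of the wider set were at -1 or less, where 7.36% of all genes were. Of these, 3 belong to the tight junction, as Cldn6 does. Cldn4 had 4 sites to 19 (-1.41), Cldn7 had 5 to 21 (-1.29), and F11r, the junctional adhesion molecule A gene, had 10 to 36 (-1.16). Ctnna1, the alpha-catenin gene, with 132 to 93 (1.09), was among those of at least 1, where 5.76% of all genes were. In ESCs, 1 of 34 genes was at -1 or less, where 5.45% were. That gene was Ocln, the occludin gene, with 0 sites in ΔZF1 and 28 in WT. Jup, which encodes plakoglobin, with 26 to 11 (2.15), Dsp with 18 to 10 (1.77) and Tln1, the talin gene, with 28 to 27 (1.03) were at least 1, where 6.84% were. These counts cover whole genes, and exons and introns were not separated for the wider set.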
